A study of Mus musculus with 2 samples.

Results

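Aminoacyl-tRNA synthetases, the enzymes that join each amino acid to its transfer RNA (tRNA), were followed in blood cells of mouse fetal liver. The family was chosen by gene symbol, as the letter of an amino acid followed by ars with an optional 1 or 2, together with Farsa, Farsb, Eprs and Ears2. Described here are 36 of these genes, among 20659 genes named on the array, of which 20 encode cytosolic enzymes or subunits and 16 encode mitochondrial enzymes. Of the 36 genes, 32 were well above background on both arrays, namely 19 cytosolic and 13 mitochondrial ones, out of 10223 such genes in all.

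Cells of E13.5 fetal liver had been sorted into SoNar-high and SoNar-low populations on the F405/F488 fluorescence ratio. SoNar is a genetically encoded sensor of the cytosolic NADH/NAD+ state, and the study set the expression profile of cells with a high sensor ratio against that of cells with a low one. Total RNA of each population was labelled with Cy3 and hybridised to 1 Agilent array, so that there was 1 array per group and no replicate. The SoNar-high sample carries the strain label C57BL/6 and the SoNar-low sample the label C57BL. The promoter that drives the sensor and the number of livers pooled are not given in the sources used here.

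Every cell needs a cytosolic synthetase activity for each amino acid, and a separate set of nuclear genes supplies the mitochondrion, where the proteins of the respiratory chain encoded by mitochondrial DNA are made. Gars and Kars each serve both compartments from 1 gene. Several cytosolic enzymes sit in a multisynthetase complex held together by scaffold proteins. Many cytosolic synthetase genes are known targets of ATF4, the transcription factor induced when amino acids are short or, in erythroid cells, when heme is short.

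Values are processed spot intensities in the scanner's units, and a difference is the SoNar-high minus the SoNar-low log2 value after each array was scaled to its own 75th percentile (186.5 units for SoNar-high, against 222.2 units for SoNar-low). Negative differences are therefore lower in SoNar-high cells. No test was possible with 1 array per group and no p-value is given. For the 213 measured probes that had 10 spots each, the log2 difference varied between spots with a median SD of 0.15, and 90% of these probes had an SD under 0.26. The median SD was 0.20 for probes with signals under 100 units and 0.14 for brighter ones. These SDs measure error between spots and leave out the animals, the sort and the labelling, so that precision is limited by having 1 array per group.

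The 32 synthetase genes differed little between the arrays and all lay within 2-fold, where 5.28% of all measured genes were at least 2-fold higher in SoNar-high cells and 4.44% at least 2-fold lower. The lowest, Tars, stood just short of 2-fold. The median difference of the 32 genes was -0.19, beside -0.08 for all measured genes. Of the 32 genes, 21 (65.6%) were below 0, beside 55.8% of all measured genes, and 11 were above 0, beside 44.2%. With each array scaled to the 75th percentile of its detected probes, which moved every gene by 0.18, 16 (50%) were below 0 and 16 above 0, where 43.3% of all measured genes were below 0. The signs of Gars, Vars, Farsa, Lars, Fars2, Ears2, Lars2, Vars2, Aars2 and Cars2 changed with the processing, and those of the other 22 did not. The middle 50% of the synthetase genes ran between -0.43 and 0.10, and that of all measured genes between -0.45 and 0.32. In bulk RNA of sorted populations, fewer cells of a type and less RNA per cell cannot be told apart.

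At a smaller size of 1.5-fold, which was chosen after seeing the data, 5 genes were lower in SoNar-high cells (Tars, Pars2, Wars, Eprs and Rars2) and none was higher. That is 15.6% of the 32 genes, close to the 17.7% of all measured genes that were lower, while 13.8% of all measured genes were at least 1.5-fold higher. Under the other settings 1 to 5 genes were at least 1.5-fold lower, with Tars alone after normexp background correction, an alternative to the background step of the scanner software, and with Tars and Pars2 when scaled to the 75th percentile of detected probes. Set against the spread between spots, 15 synthetase genes were lower by more than 0.26 (37.6% of all measured genes were) and 2 were higher by more than 0.26 (28.2% of all measured genes were). A further 7 genes differed by less than the median spot SD of 0.15.

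**Figure D1:**
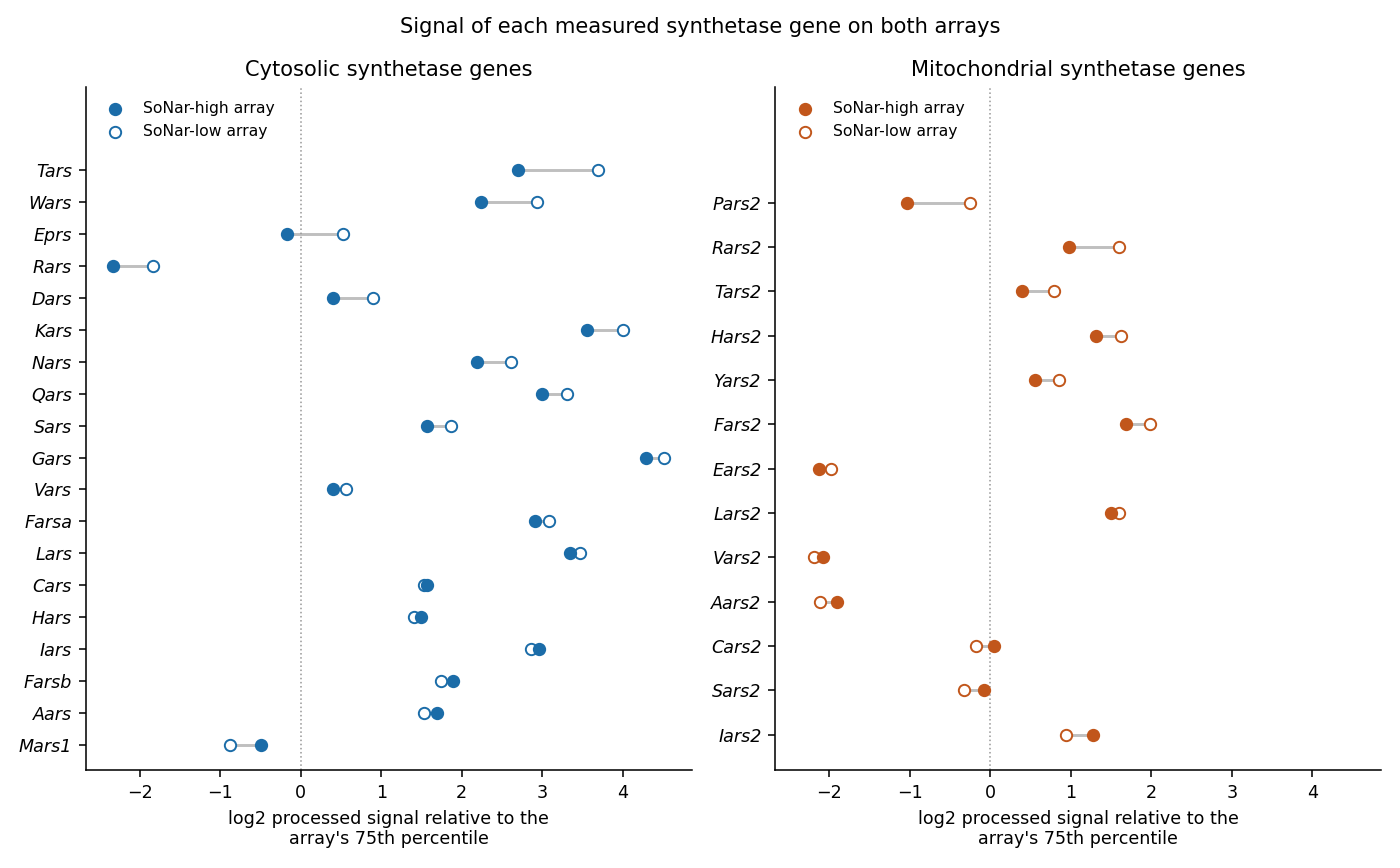
Scaled log2 signal (x axis, relative to the 75th percentile of each array) of the 19 cytosolic (left) and 13 mitochondrial (right) synthetase genes on the SoNar-high array (filled points) and the SoNar-low array (open points), ordered by difference. Only the gap between the points of 1 gene can be read, since different probes have different brightness. The filled point lies left of the open point for 13 cytosolic and 8 mitochondrial genes.

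Among the enzymes of the multisynthetase complex, 6 of 8 genes were below 0 and 2 were above 0, with a median of -0.38. Of all measured genes, 55.8% were below 0. Eprs, whose product charges tRNAs with both glutamate and proline, had 165.4 units in SoNar-high and 318.7 units in SoNar-low cells, a difference of -0.69. Rars (arginine) had 37.1 units in SoNar-high and 62.4 units in SoNar-low cells (-0.50), and both signals were near the lower end of what counted as well above background. After normexp Rars was at -0.10, within the spot SD. Dars (aspartate) had 246.6 units in SoNar-high and 413.0 units in SoNar-low cells (-0.49). Kars (lysine, for both compartments) had 2189 units in SoNar-high and 3561 units in SoNar-low cells (-0.45), and Qars (glutamine) had 1491 and 2202 units in the same order of groups (-0.31). As reported, these 5 genes were lower in SoNar-high cells by more than 0.26, the spot SD that 90% of probes stayed under. So were 37.6% of all measured genes. Qars was at -0.09 after loess and -0.13 when scaled to the 75th percentile of detected probes, both within the spot SD. Kars was at -0.22 after loess. Lars (leucine) was at -0.13, within the spot SD.

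The complex members above 0 were Iars and Mars1. Iars (isoleucine) had 1447 units in SoNar-high and 1610 units in SoNar-low cells, a difference of 0.10 that was within the spot SD. Mars1, which charges both the initiator and the elongator methionine tRNA, had 132.1 units in SoNar-high and 120.9 units in SoNar-low cells, a difference of 0.38 and the highest value of the 32 genes. The scaffold genes of the complex were all slightly below 0, with Eef1e1 at -0.32, Aimp2 at -0.25 and Aimp1 at -0.09, so that 9 of 11 genes of the complex were below 0, where 55.8% of all measured genes were. It was 7 of 11 when scaled to the 75th percentile of detected probes, after quantile normalization, after loess and in the deposited value table.

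Cytosolic synthetases outside the complex had a median of -0.17, with 7 of 11 measured genes below 0, where 55.8% of all measured genes were. Tars (threonine) had the lowest value of the 32 genes, with 1212 units in SoNar-high and 2866 units in SoNar-low cells, a difference of -0.99 or 1.98-fold. Only 4.56% of all measured genes had a lower difference. Wars (tryptophan), which is also known as a gene induced by interferon gamma, had 878.3 units in SoNar-high and 1697 units in SoNar-low cells (-0.70). A dimmer Wars probe, designed to another transcript accession, had 59.7 units in SoNar-high and 56.4 units in SoNar-low cells (0.33), so the probes of this gene disagreed in sign.

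The next lowest were Nars (asparagine), with 848.9 units in SoNar-high and 1353 units in SoNar-low cells (-0.42), and Sars (serine), with 554.4 and 811.3 units in the same order (-0.30). Gars (glycine, for both compartments) had 3656 units in SoNar-high and 5070 units in SoNar-low cells (-0.22), and Vars (valine) was at -0.17. The phenylalanine enzyme is built of 2 kinds of subunit, and their genes lay on opposite sides of 0, with Farsa at -0.17 and Farsb at 0.14. The other Farsa probe gave 0.13. Cars (cysteine, 0.04), Hars (histidine, 0.09) and Aars (alanine, 0.16) were slightly above 0. Yars (tyrosine) was not well above background on either array, with 22.2 units in SoNar-high and 18.4 units in SoNar-low cells, and has no difference here.

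The mitochondrial genes had a median of -0.16, with 8 of 13 measured genes below 0, where 55.8% of all measured genes were. Pars2 (proline) had 91.0 units in SoNar-high and 186.5 units in SoNar-low cells (-0.78), on the only 1 of its probes that was well above background, and it was at -0.38 after normexp. Rars2 (arginine) had 367.6 units in SoNar-high and 671.2 units in SoNar-low cells (-0.62, or -0.35 after normexp). The other 11 mitochondrial genes given here lay between -0.40 and 0.33.

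Tars2 (threonine) had 245.4 units in SoNar-high and 385.5 units in SoNar-low cells (-0.40), but its other probe gave 0.18. Hars2 (histidine) was at -0.30 and Fars2 (phenylalanine) at -0.29. Yars2 (tyrosine), whose human counterpart is mutated in a disease of muscle with sideroblastic anemia, had 274.0 units in SoNar-high and 401.4 units in SoNar-low cells (-0.30). Ears2 (glutamate) was at -0.16 and Lars2 (leucine) at -0.10.

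Iars2 (isoleucine) had the highest mitochondrial value, with 451.2 units in SoNar-high and 426.4 units in SoNar-low cells, a difference of 0.33 that its other probe (0.29) shared. Sars2 (serine) had 177.3 units in SoNar-high and 177.5 units in SoNar-low cells, which after scaling is 0.25. Cars2 (cysteine) was at 0.23, with its other probe at -0.26, Aars2 (alanine) at 0.21 and Vars2 (valine) at 0.11. Of the 5 synthetase genes with more than 1 measured probe (Wars, Farsa, Tars2, Cars2 and Iars2), 4 had probes of opposite sign. Over all genes with several measured probes, the probes of a gene spread over a median of 0.41.

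Mars2 (methionine) and Nars2 (asparagine) were not well above background on either array. Wars2 (tryptophan) had 35.8 units in SoNar-high cells, well above background, against 18.3 units in SoNar-low cells, not well above it. This probe passed the filter only on the array where it was brighter, so Wars2 has no difference here. The other Wars2 probe was well above background on neither array, with 21.8 units in SoNar-high and 27.0 units in SoNar-low cells.

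**Figure D2:**
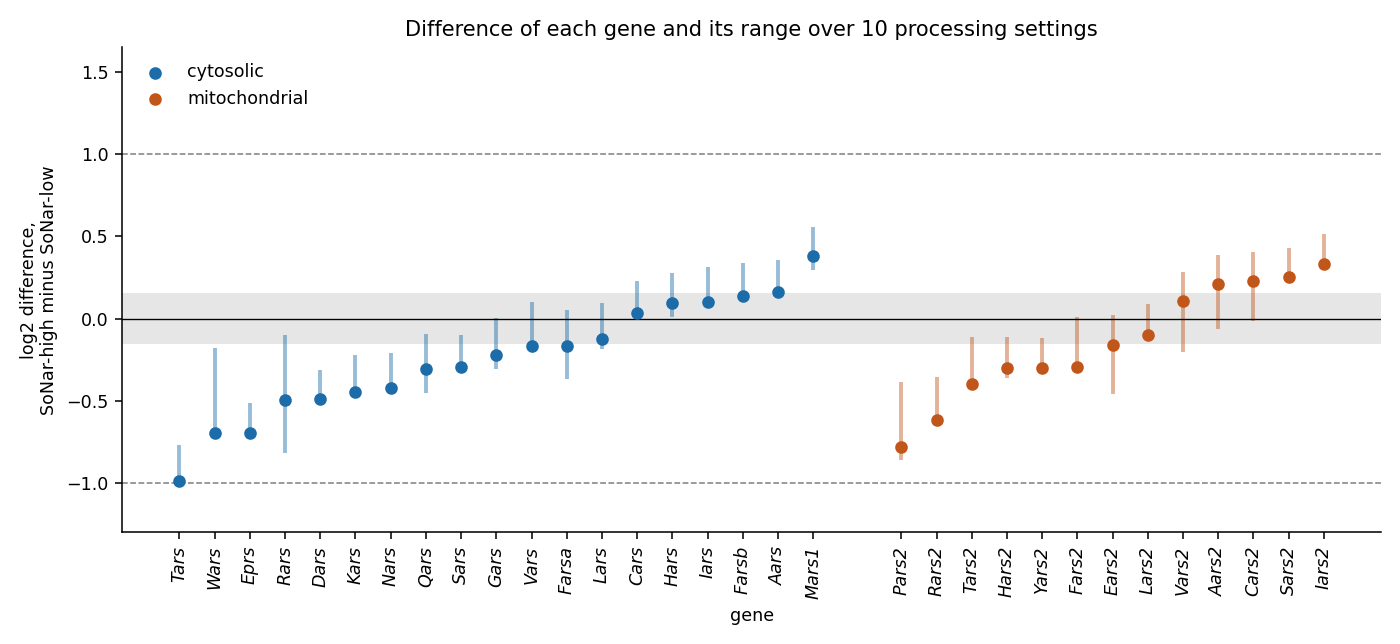
Log2 difference (y axis) of each measured synthetase gene (x axis), cytosolic genes at the left and mitochondrial genes at the right. Points are the reported values, vertical lines the range over up to 10 processing settings, the grey band the median spot SD of 0.15 on either side of 0, and dashed lines a 2-fold difference. All points lie between the dashed lines, with Tars at -0.99 nearest to one.

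The cytosolic and mitochondrial sets had medians of -0.22 and -0.16, a cytosolic minus mitochondrial difference of -0.061. Their ranges overlapped, from -0.99 to 0.38 for the cytosolic and from -0.78 to 0.33 for the mitochondrial genes. After normexp background correction, the cytosolic median was -0.31 and the mitochondrial median -0.027, a difference of -0.28. After quantile normalization the difference was 0.031, on the other side of 0. Gars and Kars were counted as cytosolic, and without them the difference between the medians was -0.0084.

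For 12 amino acids both the cytosolic and the mitochondrial gene are given here, which makes 13 pairs because both subunit genes of the phenylalanine enzyme pair with Fars2. Eprs pairs with Ears2 for glutamate and with Pars2 for proline. The cytosolic gene had the higher difference in 5 pairs and the lower one in 8, with a median of -0.048, and no pair differed by 1 or more. Threonine had the largest gap on the side of a lower cytosolic gene (Tars -0.99, Tars2 -0.40), followed by serine (Sars -0.30, Sars2 0.25) and glutamate (Eprs -0.69, Ears2 -0.16). The largest gaps on the other side were those of Farsb (0.14) with Fars2 (-0.29) and of Hars (0.09) with Hars2 (-0.30). In 6 pairs both genes were below 0, in 3 both were above 0 and in 4 the signs were opposite. Alanine and leucine showed nearly equal values in both compartments, with Aars at 0.16 beside Aars2 at 0.21 and Lars at -0.13 beside Lars2 at -0.10.

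**Figure D3:**
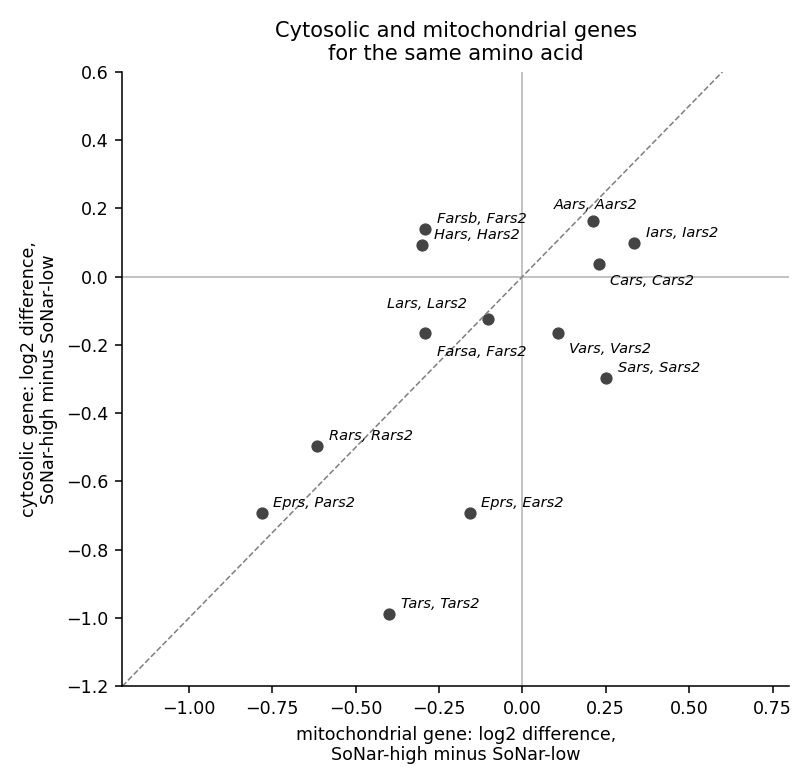
Log2 difference of the cytosolic gene (y axis) against that of the mitochondrial gene (x axis) for 13 pairs of 12 amino acids, with a dashed line of equal differences. Tars with Tars2 lies farthest below the line and Farsb with Fars2 farthest above it.

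Synthetases fall into structural classes I and II by the fold of their catalytic domain, a property the choice of genes did not use. Eprs was counted in class I by its glutamate part. Class II genes had a median of -0.29, with 11 of 16 measured genes below 0, and class I genes a median of -0.14, with 10 of 16 below 0. Beside these counts, 55.8% of all measured genes were below 0. The ranges overlapped (-0.99 to 0.25 for class II and -0.70 to 0.38 for class I).

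Proteins that work beside the synthetases gave no gene past 2-fold. In the mitochondrion, which makes glutaminyl-tRNA by amidation of a mischarged tRNA, the amidotransferase genes Gatc and Qrsl1 were at 0.31 and 0.24 and Gatb at -0.06. The other Gatb probe gave 0.41, and Gatc and Qrsl1 were dim, with signals under 100 units on both arrays. Mtfmt, which formylates the mitochondrial initiator tRNA, was at -0.53, and Pstk, a kinase on the route to selenocysteine, at 0.10. Sepsecs, the synthase at the end of that route, was measured in SoNar-high cells and not well above background in SoNar-low cells. Among synthetase-like and editing proteins, 2 genes were above 0 and 3 below 0. Dtd1, a deacylase that clears D-amino acids from tRNA, had 538.1 units in SoNar-high and 1047 units in SoNar-low cells (-0.71), while Dtd2 was at 0.15. Tarsl2, a cytosolic relative of Tars, was at -0.43, Aarsd1, an editing protein for mischarged alanine tRNA, at -0.13, and Prorsd1 at 0.03. The other Prorsd1 probe gave -0.34.

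The factors that carry charged tRNA to the ribosome and move the ribosome along were mixed. In the cytosol, Eef1b2 was at -0.54, Eef1a1 at -0.42, Eef1d at -0.26 and Eef1g at 0.00, whereas the translocase gene Eef2 had 8738 units in SoNar-high and 6792 units in SoNar-low cells (0.62). The other probes of Eef1a1 and Eef1g gave -0.16 and -0.21. In the mitochondrion, Gfm1 (-0.85) and Gfm2 (0.51), which act in elongation and in ribosome recycling, lay on opposite sides of 0, with Tufm at 0.28 and Tsfm at -0.06. The other Gfm2 probe gave 0.25.

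Among 11 measured genes of the ATF4 pathway outside the family, 7 were above 0 and 4 below 0, with a median of 0.30 and none past 2-fold. Of all measured genes, 44.2% were above 0. Atf4 itself had 15332 units in SoNar-high and 30222 units in SoNar-low cells (-0.73), and its mRNA level is only part of its control, which acts mainly on translation. Psat1, an enzyme of serine synthesis, was at -0.83, whereas Slc3a2 (a chain of amino acid transporters) was at 0.76 and Chac1 (which breaks down glutathione) at 0.74. The other probes of Atf4 and Psat1 gave -0.46 and -0.37. Chac1 was dim, with 79.4 units in SoNar-high and 56.4 units in SoNar-low cells.

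ATF4 binds with C/EBP partners to a composite element, and the promoters (250 bases before to 50 after the start) of RefSeq's GRCm38.p6 annotation were searched for the letters TGATGNAAT on both strands. Promoters were found for 27 of the 36 genes, 13 cytosolic and 14 mitochondrial. The element was in 3 of these 27 (11.1%), all cytosolic (Aars, Gars and Iars), beside 1.08% of 27025 genes with a promoter in the table. The matching stretches are shown because ATF4 is the factor this family is best known for, with the element in capitals, read on the strand of the gene, where it appears as ATTNCATCA. The element of Iars lies just after the start, and only the bases up to its end are given.
Aars (GRCm38.p6, chr8:111033709-111033757, plus strand): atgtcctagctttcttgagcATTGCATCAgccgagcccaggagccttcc
Gars (GRCm38.p6, chr6:55037950-55037998, plus strand): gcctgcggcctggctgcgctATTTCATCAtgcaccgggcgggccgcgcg
Iars (GRCm38.p6, chr13:49682116-49682144, plus strand): ttgagcctggcactgtcagtATTGCATCA

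The 3 genes with these letters differed by 0.16 (Aars), -0.22 (Gars) and 0.10 (Iars), all within 2-fold, and 20 measured members whose promoter lacked them had a median of -0.23. The E-box CACGTG, which does not overlap the composite element here, was in 5 of the 27 promoters (18.5%), beside 8.09% of all genes with a promoter. These were Aars, Farsb, Iars, Tars and Ears2, whose differences ran between -0.99 (Tars) and 0.16 (Aars). Their median was 0.10, with 3 above 0 and 2 below 0, and 18 measured members without the E-box had a median of -0.26. A link between the E-box and these values was not tested. Only the site of Tars, the cytosolic gene with the lowest value, is shown, with the E-box, just after the start, in capitals.
Tars (GRCm38.p6, chr15:11399634-11399659, minus strand): tagctggttccgcctgtggcCACGTG

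A letter match is a description and not evidence of binding. Several synthetase genes lie within 1000 bases of another protein-coding gene or overlap it, and 13 such pairs were measured, from which the examples were chosen after their values were seen. Sars2 (0.25) lies beside Mrps12 (0.18), a mitochondrial ribosomal protein gene, Rars2 (-0.62) overlaps Orc3 (-0.47), which encodes a subunit of the origin recognition complex, and Mars1 (0.38) overlaps Ddit3 (0.48), a gene of the ATF4 pathway. These pairs had similar differences, but 7 of the 13 pairs had opposite signs. Tars2 (-0.40) lies beside Ecm1 (0.70), and Hars (0.09) overlaps Hars2 (-0.30).

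The sorted populations held different mixes of marker transcripts, and the synthetase values stand beside them. The marker lists were chosen with earlier results of these data known, so their counts are a description and not a test. Among all measured genes, 5.28% were at least 2-fold higher in SoNar-high cells and 4.44% at least 2-fold lower. On the brightest probe of each gene, all 7 erythroid markers, 6 of 7 measured macrophage, 5 of 6 hepatoblast and all 4 endothelial markers were at least 2-fold higher in SoNar-high cells. Another probe was under 2-fold for Ermap (erythroid, 0.49) and Kdr (endothelial, 0.74), and past it for Csf1r (macrophage, 1.02). The summed signals of these lists, in multiples of the 75th percentile, were 44.4 in SoNar-high and 18.7 in SoNar-low cells for erythroid, 98.1 and 37.9 for macrophage, 112.3 and 50.6 for hepatoblast and 19.0 and 3.46 for endothelial markers, in the same order of groups. In the other direction, 3 of 5 B lymphoid, 4 of 5 T and NK and 3 of 5 stem and progenitor markers were at least 2-fold lower. The stem and progenitor marker Cd34 only just passed (-1.02), and its other probe gave -0.39. The remaining T and NK marker, the T cell receptor component Cd3e, was at 0.87 and so higher in SoNar-high cells. The sums of these 3 lists were 20.2 in SoNar-high and 61.0 in SoNar-low cells for B lymphoid, 3.76 and 28.1 for T and NK and 39.7 and 74.5 for stem and progenitor markers. A sum is carried by its brightest probes, which for macrophage and hepatoblast markers were Csf1r (0.18) and Apoe (0.71). The median differences were 1.70 for erythroid, 3.03 for macrophage, 1.95 for hepatoblast, 2.60 for endothelial, -1.56 for B lymphoid, -2.76 for T and NK and -1.02 for stem and progenitor markers. No listed marker measured on both arrays was at 0. The macrophage receptor gene Timd4 passed the filter on the SoNar-high array alone, so it has no difference here and enters none of these counts. The lowest signal that counted as well above background was 30.2 units for SoNar-high and 37.1 units for SoNar-low. The part of these mixes in the synthetase values was not tested.

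Proliferation markers lay on both sides of 0, with Mcm2 at 0.57, Myc at 0.32, Mki67 at 0.10, Top2a at -0.38 and Pcna at -0.68, and with none past 2-fold.

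**Figure D4:**
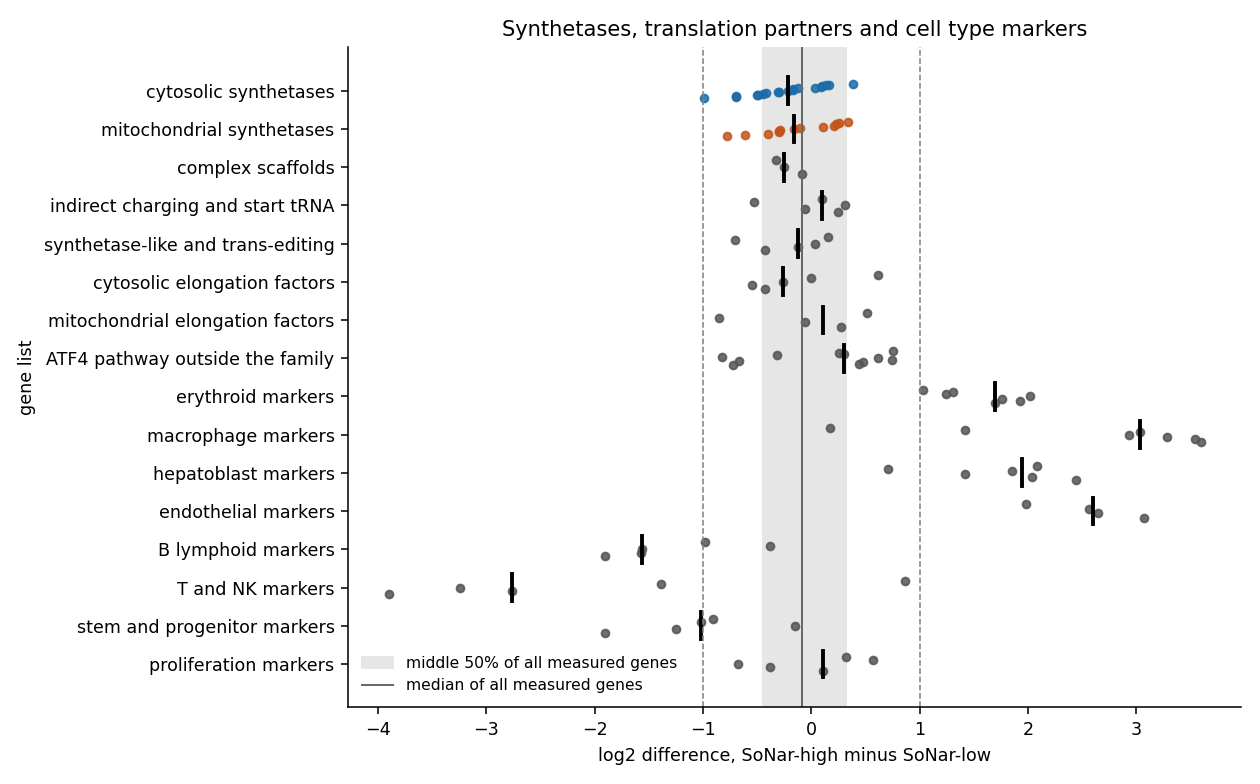
Log2 difference (x axis) of the measured genes of each list (y axis), with a black bar at the list's median, the middle 50% of all measured genes in grey, their median as a vertical line, and dashed lines at 2-fold. Both synthetase sets lie around the grey band, with medians of -0.22 (cytosolic) and -0.16 (mitochondrial), whereas the cell type marker lists lie mostly beyond a 2-fold difference.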

How the data were processed

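Spot intensities were deposited by the authors as 1-colour scanner output of Agilent Feature Extraction, 11.0.1.1 per the file headers and 9.1 per the submitters' processing notes. The processed signal is background-subtracted and detrended per the file headers. The deposited value table holds log2 values of the authors, made by a method that the sources used here do not give, and served as an alternative. Its differences were close to those after quantile normalization, with a median of the 32 synthetase genes of -0.13 and Tars at -0.80 in both. The deposited values and quantile normalization are therefore not separate checks.

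Control spots and outlier spots (225 for SoNar-high, 135 for SoNar-low) were left out, log2 processed signals were scaled to the 75th percentile of 43020 non-control spots, and spots of a probe were averaged. A probe was measured if most spots were well above background (true of 49.4% of spots for SoNar-high and 42.4% for SoNar-low) and none was saturated. Each gene took its brightest measured probe. Probes were named through transcript accessions in a RefSeq table of GRCm38.p6. That build was used for names, neighbours and the promoter search only, since the design refers to an older build. Of 39420 probes, 12191 stayed unnamed. The counting was tested on simulated arrays made from the SoNar-low array, with set changes that were all larger than 2-fold. Both simulated arrays shared the same background flags, so the filter and smaller differences were not tested. One gene of the family is not reported here and enters none of its counts, and every other one is named. In the 6 lists of partner and pathway genes, all members are named where 6 or fewer were measured, and otherwise 3 by size of difference and the brightest. Members of the 8 marker lists are mostly given by counts and sums, and Timd4, Cd3e, Csf1r, Apoe, Ermap, Kdr and Cd34 were named after their values were seen. The members and lists were chosen with earlier results of these data known. Normexp used limma 3.58.1, loess statsmodels 0.14.6.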

Additional observations from a re-analysis of the deposited data

How the results depend on the processing

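No paired analysis was possible because there was 1 array per group. No synthetase gene given here was at least 2-fold lower as reported or under 10 alternatives, and 5 were at 1.5-fold, a size chosen after seeing the data. The alternatives included a 3-fold threshold, which could only give 0 once no gene was 2-fold lower. Scaling to the median or the 75th percentile of detected probes raised every difference, so neither could add a lower gene. At 1.5-fold the count was 1 after normexp (Tars), 2 with the 75th percentile of detected probes (Tars and Pars2), 3 after loess and 4 or 5 under the other settings. The count at least 2-fold higher was 0, and 1 with dim probes kept. The cytosolic median was -0.041 with the 75th percentile of detected probes and -0.061 after loess, and the mitochondrial median was 0.019 with that percentile. The cytosolic minus mitochondrial median was -0.28 after normexp and 0.099 with processed signals of at least 100, and its sign also turned after quantile normalization (0.031), after loess (0.029) and in the deposited value table (0.031). The deposited differences nearly equal those after quantile normalization, so these settings are not separate checks. The cause of these shifts was not tested, except that the 75th percentile of detected probes moves every gene by 0.18 alike (loess moved the median of all genes by 0.10). The median of the synthetase genes minus that of all measured genes was -0.11 and lay between -0.19 and -0.09 over 10 settings. Scaling to the median or the 75th percentile of detected probes moves all genes alike, so neither could change this value. Of 32 genes, 14 were below 0 and 8 above 0 in every setting run for them, and 10 changed sign. Tars was between -0.99 and -0.77. Background signal limits the dim genes Rars, Ears2, Vars2 and Aars2, whose processed signals were under 100 on both arrays. It also limits Pars2, whose signal was under 100 in SoNar-high cells (91.0 units) and which was at -0.38 after normexp.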
